A study of Homo sapiens with 4 samples.

Results

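The DNAJ genes encode the J-domain co-chaperones, a family also called HSP40. The genes described here are 34 members of its A, B and C branches, chosen by symbol from a list that leaves out 4 J-proteins linked to stress of the endoplasmic reticulum (DNAJB9, DNAJB11, DNAJC3 and DNAJC10). Each of the 34 symbols matched 1 row of the 57773 genes in the authors' deposited table, and all 34 had a fold change there. The rule used gene names and no measured value, but the list was drawn up with earlier results of these data known. The cells were KMS12PE and KMS11, established human lines of multiple myeloma, a cancer of antibody-secreting plasma cells. Each line was treated with 1 µM OSSL_325096, which the labels name by this code alone, or with the solvent DMSO. That gave 4 RNA sequencing libraries, 1 for each pairing of line and treatment, with the duration of exposure not given in the sources used here. Both lines enter 1 comparison: the authors' deposited table compares the treatments over both lines together, so the lines stand as the only replicates of a treatment and no difference between the lines can be read. Values of single libraries and their depth were not analysed here, and in such bulk RNA fewer cells of a kind and less RNA per cell cannot be told apart.

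J-proteins bring unfolded or assembled client proteins to HSP70 chaperones. Their J-domain makes HSP70 split ATP and close on the client, and exchange factors such as the BAG and HSP110 proteins then reset the cycle. Type A and type B members act mainly as general folding helpers of the cytosol and nucleus, some of them made in larger amounts under heat shock through the factor HSF1. Type C members share only the J-domain and place HSP70 at particular sites, such as ribosomes, spliceosomes, clathrin coats, mitochondrial import pores and the membrane of the endoplasmic reticulum. Plasma cells secrete antibody and are known for their heavy load of protein folding.

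The marker genes of the labelled cell type were present. All 8 plasma cell markers were between 6.26 RPKM (SLAMF7) and 179.8 RPKM (XBP1) per the authors' deposited table; RPKM scales reads by transcript length and library size, and the table lists the mean of whichever treatment group was higher. Of 9 markers of other cell types 8 were matched, MS4A1 (B cells) was listed at 0, 6 were under 1 RPKM and EPCAM, an epithelial adhesion gene, was at 15.8 RPKM with a log2 fold change of -0.18 per the authors' deposited table. Of the plasma cell markers 7 of 8 were below 0, with a median log2 fold change of -0.22. At least 1.5-fold lower were 3, and 1 was as far above. Of all genes of at least 1 RPKM, 51.0% were above 0 and 4.95% lay 1.5-fold or more on each side. The 3 lower markers were CD38, IRF4 and TNFRSF17, at -0.73, -0.67 and -0.66 per the authors' deposited table, and SDC1 was at 0.60 there. Standard errors implied by the p-values, described further on, ran from 0.91 to 1.80 and exceeded the size of each marker's value. The part of these markers and of EPCAM in the results was not tested. Of the 23130 genes with a fold change, 11324 had a group mean of at least 1 RPKM, the minimum used below. Their median log2 fold change was 0.0087, and positive values are read as a higher level with OSSL_325096, which the table's name puts before DMSO. No column states this order, and every direction, implied group level and share below would turn if it were the reverse.

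Across the family, the DNAJ genes stood close to no difference, with DNAJB1 and DNAJA1 apart at the upper end. Of the 34 members 28 reached 1 RPKM. Among these, 2 were at least 1.5-fold higher with OSSL_325096 (7.14%), where 4.95% of all measured genes were, and 0 were at least 1.5-fold lower, where 4.95% of all measured genes were. The share of members at 1.5-fold was therefore near that of all genes. Both higher members were also past 2-fold, which 0.989% of all measured genes were. Within 0.32 of 0 on the log2 scale lay 21 of the 28 members, and 68.4% of all genes did. The median log2 fold change of the 28 was 0.064 (quartiles -0.20 and 0.16), against 0.0087 (quartiles -0.21 and 0.22) over all genes. Members above 0 numbered 17 of 28, or 60.7%, and 51.0% of all genes were above 0.

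No member passed a test. With the Benjamini-Hochberg adjustment of the authors' p-values over the 11324 genes, 0 members and 0.0% of all genes had an adjusted p under 0.05. At an unadjusted p under 0.05 the count was 0 of 34 members and 5 of all measured genes (0.0442%). The smallest p of a member was 0.150, for DNAJB1 per the authors' deposited table. An implied standard error (SE) was derived from each p-value, as the size of the log2 fold change over the normal deviate of that p, which is exact only for a two-sided normal test. It ran from 0.84 (DNAJB6) to 2.23 (DNAJC15) over the 28 members. A member with the smallest of these SEs needed a 3.13-fold difference for an unadjusted p of 0.05, and one with the largest needed 20.7-fold. Differences under 3.13-fold were thus not detectable in any member by that test, and the values below are descriptions of size. Over all measured genes the median implied SE was 1.10, while the quartiles of the log2 fold change were -0.21 and 0.22. The 0.0442% of genes with an unadjusted p under 0.05 is also far below what that limit passes where no gene differs. The authors' p-values thus ran high, and the implied SEs and intervals may overstate the error. The reason was not tested.

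**Figure D1:**
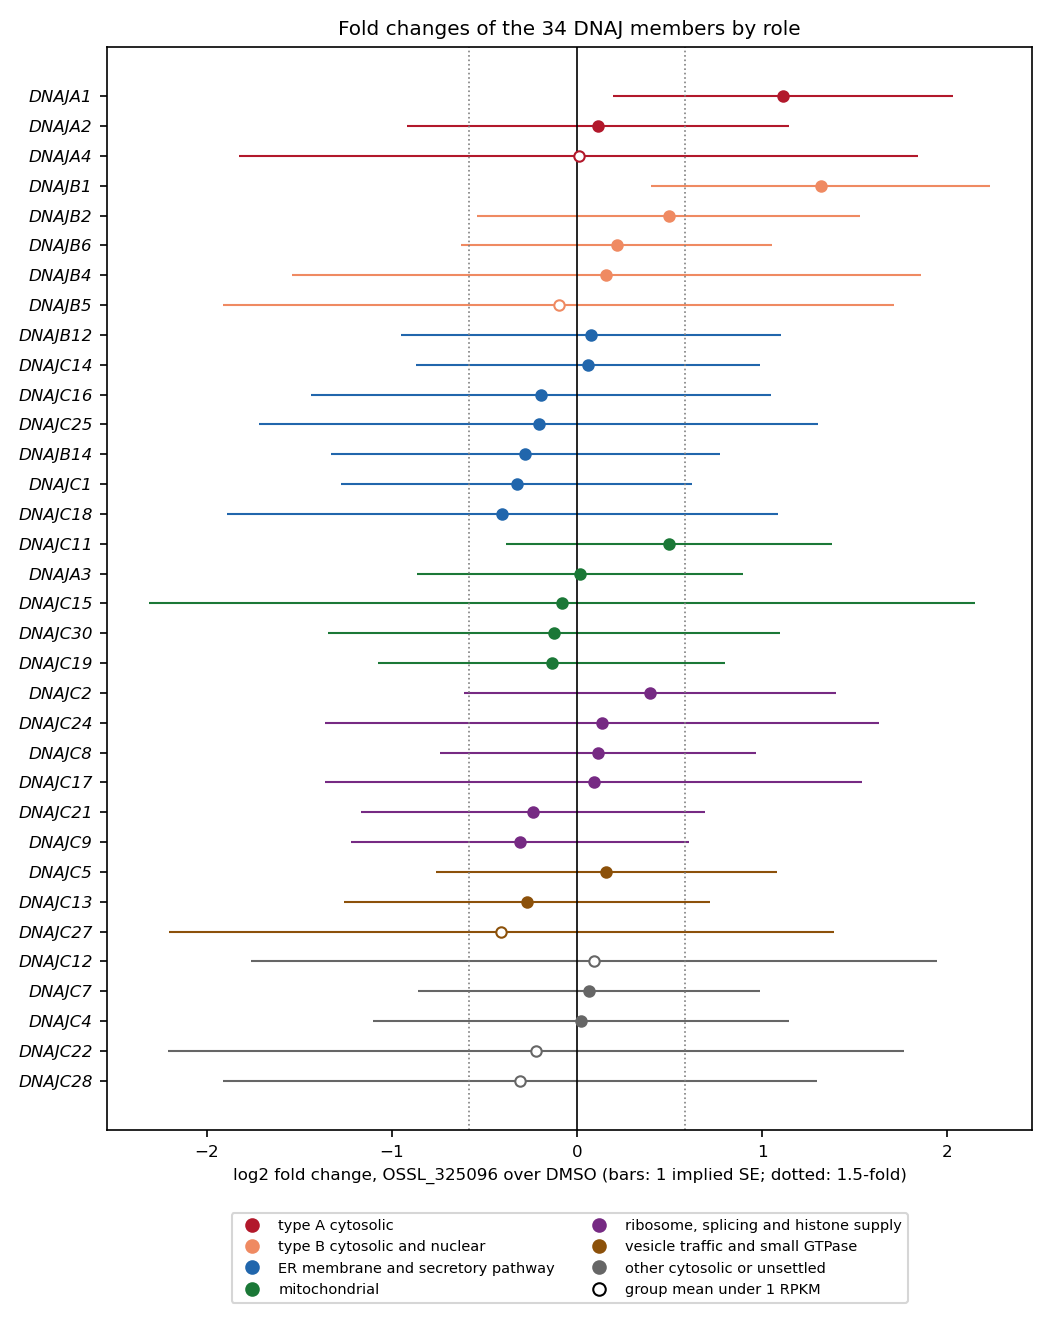
Horizontal positions give the log2 fold change of OSSL_325096 over DMSO for the 34 DNAJ members, grouped and coloured by role. Bars are 1 implied SE, dotted lines mark 1.5-fold, and open circles are the 6 members under 1 RPKM; DNAJB1 at 1.32 and DNAJA1 at 1.11 lie past the right dotted line, and no member lies past the left one.

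DNAJB1 encodes the main heat-inducible HSP40 of the cytosol, a type B protein that works with HSP70 on misfolded and aggregated proteins. In the authors' deposited table its mean was 26.1 RPKM in the higher group, with OSSL_325096, and its fold change was 2.49. The level this implies with DMSO was 10.5 RPKM. On the log2 scale this was 1.32 per the authors' deposited table (implied SE 0.92) and a 95% interval from -0.48 to 3.11. From the highest, it ranked 46 of the 11324 measured genes, with 0.397% above it. By p-value DNAJB1 ranked 19 among them, yet its adjusted p was 0.9999 with the Benjamini-Hochberg adjustment of the authors' p-values. The gene lies on the minus strand of chromosome 19, from 14625582 to 14640582 on hg19. Its canonical transcript in GENCODE 44 has 3 exons and 1020 coding bases.

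DNAJA1 encodes a major type A HSP40 of the cytosol, which carries a farnesyl anchor and a zinc-binding region. It had a mean of 46.9 RPKM with OSSL_325096 per the authors' deposited table and a fold change of 2.17 there, which implies 21.7 RPKM with DMSO. On the log2 scale this was 1.11 per the authors' deposited table (implied SE 0.92) and a 95% interval from -0.69 to 2.92. It ranked 81 from the highest, with 0.706% of measured genes above it, and its unadjusted p was 0.225 by the authors' model. The intervals of DNAJB1 and DNAJA1 both reached below 0, and the difference between these genes was not tested. DNAJA1 lies on the plus strand of chromosome 9, from 33025209 to 33039905 on hg19, and its canonical transcript has 9 exons and 1191 coding bases.

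The promoters of these genes were searched for the letters of the heat shock element, the site that HSF1 binds as units of GAA facing opposite ways. Shown are DNAJB1 and DNAJA1, the members with the largest fold changes, beside DNAJB6 and DNAJA2, members of the same types with smaller ones. Each stretch runs 5′ to 3′ from 200 bases before to 20 bases after a RefSeq start (RefSeq on GRCh38.p14). Each was found at a single place on its chromosome in GRCh37, the build of the files, and the start was also the first base of the GENCODE canonical transcript. DNAJB1 (chr19:14629190-14629409, minus strand) has 3 RefSeq starts, of which the one with the most matches is shown. It lies 11373 bases inside the gene's region in the table. The others are DNAJA1 (chr9:33025071-33025290, plus strand), DNAJB6 (chr7:157129498-157129717, plus strand) and DNAJA2 (chr16:47007566-47007785, minus strand). Capitals mark matches to GAANNTTC or TTCNNGAA, where N is any base; each of these motifs is its own reverse complement.
DNAJB1: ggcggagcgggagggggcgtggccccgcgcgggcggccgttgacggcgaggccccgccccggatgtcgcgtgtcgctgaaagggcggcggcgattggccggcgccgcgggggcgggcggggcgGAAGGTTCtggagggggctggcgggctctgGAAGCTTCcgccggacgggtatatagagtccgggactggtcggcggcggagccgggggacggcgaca
DNAJA1: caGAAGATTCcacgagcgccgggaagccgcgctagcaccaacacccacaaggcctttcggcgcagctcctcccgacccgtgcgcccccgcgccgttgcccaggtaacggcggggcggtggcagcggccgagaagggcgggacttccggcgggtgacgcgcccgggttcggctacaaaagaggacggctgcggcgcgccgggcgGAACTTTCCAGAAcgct
DNAJB6: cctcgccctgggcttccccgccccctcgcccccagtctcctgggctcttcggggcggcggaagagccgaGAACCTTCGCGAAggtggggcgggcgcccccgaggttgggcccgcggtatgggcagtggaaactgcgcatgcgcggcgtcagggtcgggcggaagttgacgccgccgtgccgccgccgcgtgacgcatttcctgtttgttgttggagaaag
DNAJA2: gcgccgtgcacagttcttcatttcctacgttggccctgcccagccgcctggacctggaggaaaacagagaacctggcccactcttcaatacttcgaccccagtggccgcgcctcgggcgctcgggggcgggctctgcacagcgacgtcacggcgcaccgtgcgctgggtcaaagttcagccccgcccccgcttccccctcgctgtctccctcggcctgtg

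With +1 as the first base of the transcript, the DNAJB1 stretch held GAANNTTC at -77 to -70 and again at -47 to -40. DNAJA1 held it at -198 to -191, and the 3-unit run GAANNTTCNNGAA at 4 to 16, inside the transcript and before the coding start. DNAJB6 held the 3-unit run at -131 to -119. The DNAJA2 stretch held no match to these letters. In windows from 250 bases before to 50 after a start, the 3-unit run or its reverse complement TTCNNGAANNTTC was in 172 of 35116 RefSeq windows (0.49%). GAANNTTC was in 6.77% of windows and TTCNNGAA in 7.74%, and every 3-unit run holds both of these shorter motifs. Of the 34 members 31 had a window, and the 3-unit run was in 2 of them, DNAJA1 and DNAJB6. GAANNTTC was in 4 (those and DNAJB1 and DNAJA4), and TTCNNGAA was in 4 (DNAJA1, DNAJB6, DNAJB4 and DNAJC15). Members with matching letters thus had log2 fold changes from -0.08 (DNAJC15) to 1.32 (DNAJB1) per the authors' deposited table. The shares above are by window, while a member counts if any of its windows holds the motif. Counted by gene, 26 measured members had a window. The 3-unit run, GAANNTTC and TTCNNGAA were in 2, 3 and 4 of these. They were in 0.475%, 6.31% and 8.24% of the 8007 measured genes with a window. Over these 8007 genes, the 38 that held the 3-unit run had a median log2 fold change of 0.095, against 0.015 for all 8007. At least 1.5-fold higher were 4 of the 38 (10.5%), and DNAJA1 is among those 4. The share of 4.95% at 1.5-fold given earlier is over all 11324 measured genes, with or without a window. The 505 genes with GAANNTTC, the motif that DNAJB1 holds, had a median of -0.0057, with 4.95% at least 1.5-fold higher, and the 660 with TTCNNGAA had a median of -0.016, with 4.09%. A match of letters is a description of the sequence and shows no binding.

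The other cytosolic members of types A and B that reached 1 RPKM were all above 0 but smaller. DNAJB2, a ubiquitin-binding HSP40 best known in neurons, was listed at 6.67 RPKM with a log2 fold change of 0.50 per the authors' deposited table (implied SE 1.03), and 7.21% of measured genes had a larger one. DNAJB6, a suppressor of polyglutamine aggregation, had 0.22 at 7.23 RPKM per the authors' deposited table (implied SE 0.84). DNAJB4, a close relative of DNAJB1, had 0.16 at only 1.65 RPKM there (implied SE 1.70). DNAJA2, the relative of DNAJA1 that supports refolding, had 0.12 at 10.9 RPKM per the authors' deposited table (implied SE 1.03). All 6 measured members of these types were above 0, where 51.0% of all measured genes were, with a median of 0.36. The other 22 measured members had 11 above 0 and a median of -0.032. Each of the 6 intervals covered 0, which restates that none had an unadjusted p under 0.05 by the authors' p-values.

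Members of the endoplasmic reticulum membrane and secretory pathway stood mostly below 0. Of 7, 5 were below 0 and 0 were past 1.5-fold, with a median of -0.21. Of all measured genes 51.0% were above 0, and 4.95% lay 1.5-fold or more on each side. DNAJC1, a reticulum membrane protein that faces BiP in the lumen and ribosomes in the cytosol, had the highest level of all 34 members, 92.0 RPKM with DMSO per the authors' deposited table. Its log2 fold change was -0.33 there (implied SE 0.95), which implies 73.4 RPKM with OSSL_325096. DNAJC18, a membrane J-protein, had the lowest fold change of the measured members, -0.40 at 1.502 RPKM per the authors' deposited table (implied SE 1.49), and 10.4% of measured genes were lower still. DNAJB14 and DNAJB12 are related membrane proteins whose J-domains face the cytosol and serve degradation of reticulum proteins. DNAJB14 had -0.28 and DNAJB12 0.08 per the authors' deposited table, at 2.36 and 5.72 RPKM. DNAJC25 had -0.21 there and DNAJC16 -0.19, at 2.50 and 2.16 RPKM. DNAJC14, which takes part in export of receptors from the reticulum, had 0.06 at 17.0 RPKM per the authors' deposited table. Their SEs, from 0.93 to 1.51, were larger than every one of these values.

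The mitochondrial members were near 0 except for DNAJC11. This protein of the mitochondrial outer membrane and cristae-organising complex was listed at 25.9 RPKM, with a log2 fold change of 0.50 per the authors' deposited table (implied SE 0.88), and 7.15% of measured genes had a larger one. DNAJA3, also called TID1, is the type A partner of mitochondrial HSP70 and had 0.02 at 25.5 RPKM per the authors' deposited table. DNAJC19, a part of the import motor of the inner membrane, had -0.14 at 13.4 RPKM there. DNAJC15, its relative also called MCJ, had -0.08 at 1.55 RPKM, and DNAJC30, which serves the upkeep of respiratory complex I, -0.12 at 6.83 RPKM per the authors' deposited table. The median of these 5 was -0.080.

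Members that work on ribosomes, splicing and histones lay on both sides of 0. DNAJC2, the ribosome-bound J-protein also called MPP11, had a log2 fold change of 0.39 at 9.34 RPKM per the authors' deposited table (implied SE 1.00), which implies 7.11 RPKM with DMSO. DNAJC21, which helps the large ribosomal subunit mature, had -0.24 at 7.36 RPKM there (implied SE 0.93). DNAJC9, a chaperone that supplies histones H3 and H4, had -0.31 per the authors' deposited table, from 12.4 RPKM with DMSO (implied SE 0.91). The spliceosome-associated DNAJC8 and DNAJC17 had 0.11 and 0.09 per the authors' deposited table, DNAJC8 at 39.9 RPKM, the third highest level of the family, and DNAJC17 at 3.47 RPKM. DNAJC24, an enzyme of diphthamide synthesis on elongation factor EEF2, had 0.14 at 1.17 RPKM there. Of these 6, 4 were above 0, where 51.0% of all measured genes were, and 0 were past 1.5-fold.

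Members of vesicle traffic differed in sign, and each value was smaller than its own SE. DNAJC5, the cysteine string protein of secretory vesicles, had a log2 fold change of 0.16 at 16.9 RPKM per the authors' deposited table (implied SE 0.92). DNAJC13, an endosomal protein also called RME-8, had -0.27 at 5.37 RPKM there (implied SE 0.99). DNAJC7, which has TPR repeats and contacts both HSP70 and HSP90, had 0.07 at 19.0 RPKM per the authors' deposited table. DNAJC4 had 0.02 at 9.76 RPKM there.

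The 6 members under 1 RPKM were DNAJC12 at 0.890, DNAJC27 at 0.719, DNAJB5 at 0.686, DNAJC22 at 0.314, DNAJA4 at 0.147 and DNAJC28 at 0.110 RPKM per the authors' deposited table. DNAJA4, a type A member, and DNAJB5, a type B member related to DNAJB1, had log2 fold changes of 0.01 and -0.10 there. DNAJC12, a co-chaperone of aromatic amino acid hydroxylases, had 0.09, and DNAJC27, a Rab-like GTPase with a J-domain, had -0.41 per the authors' deposited table. DNAJC22 and DNAJC28 had -0.22 and -0.31 there. Implied SEs of these 6 were between 1.60 and 1.99, so none of them could have passed with less than an 8.83-fold difference.

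**Figure D2:**
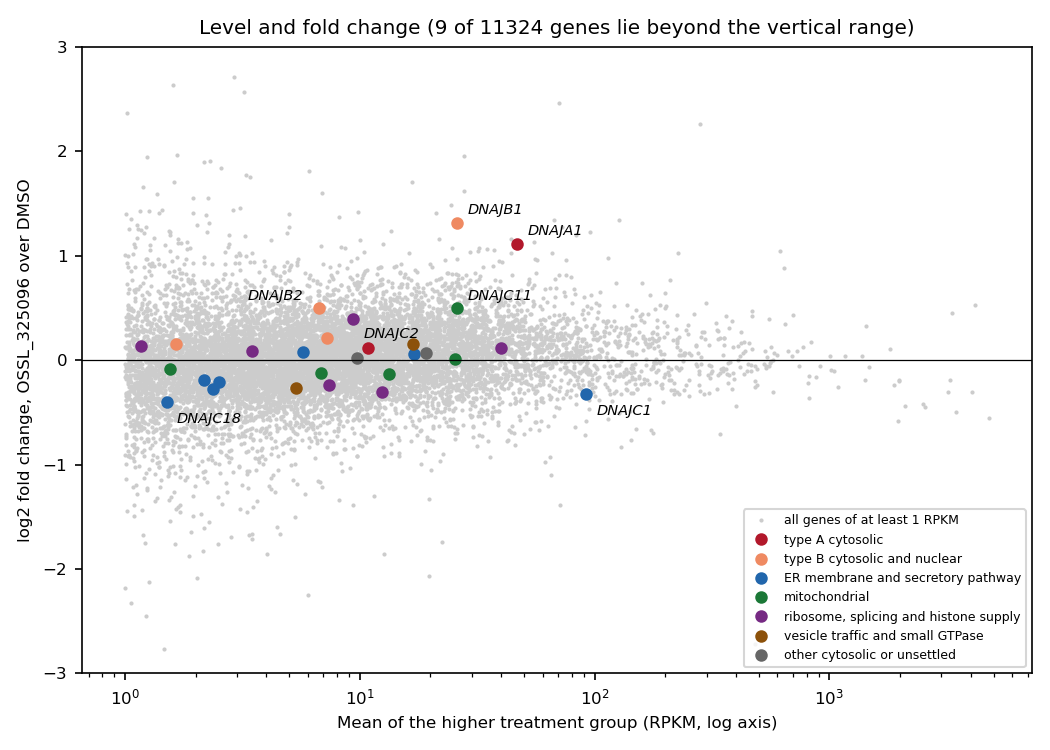
Mean of the higher treatment group (RPKM, log axis) against the log2 fold change for the 28 measured members, coloured by role, over all 11324 measured genes in grey; 9 genes lie beyond the vertical range. DNAJB1 and DNAJA1 stand above the mass of genes of their level, and DNAJC1 at 92.0 RPKM is the most highly expressed member.

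DNAJA1 and DNAJB1 held most of the summed level of the cytosolic types A and B. Levels implied for each group were summed, which is possible across genes because RPKM is scaled by length. The 6 measured members summed to 54.6 RPKM with DMSO and 99.4 RPKM with OSSL_325096. DNAJA1 and DNAJB1 together gave 32.1 RPKM of this with DMSO (58.8%) and 73.0 RPKM with OSSL_325096 (73.4%). This pair was taken because both were past 1.5-fold, so the rise of its share follows from that choice. The other 22 measured members summed to 303.9 RPKM with DMSO and 294.9 RPKM with OSSL_325096. That drop was smaller than the drop of DNAJC1 alone, from 92.0 to 73.4 RPKM. Without DNAJC1, the rest of them summed higher with OSSL_325096. DNAJC1 alone held 25.7% of the sum over all 28 members with DMSO and 18.6% with OSSL_325096. In order of level, DNAJB1 stood just above DNAJC11 and DNAJA3 in the higher-group means, yet its implied level with DMSO, 10.5 RPKM, was below both DNAJC11 (18.3 RPKM) and DNAJA3 (25.3 RPKM). These sums have no replicate error, since the lower group's level rests on the fold change and not on library values.

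**Figure D3:**
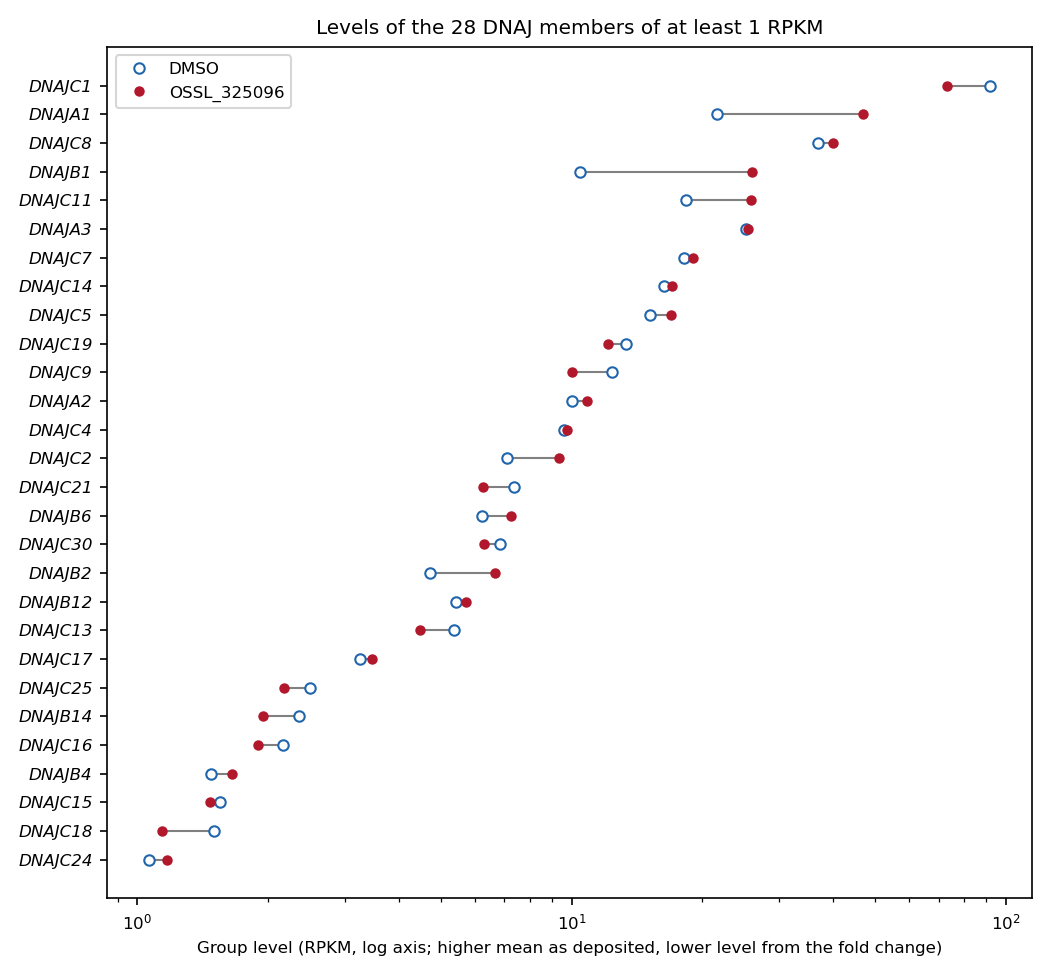
Levels (RPKM, log axis) of the 28 measured members in order of their higher group mean, with DMSO as open blue and OSSL_325096 as filled red circles; the higher mean is as deposited and the lower is that mean divided by the fold. The longest lines belong to DNAJB1 (10.5 to 26.1 RPKM) and DNAJA1 (21.7 to 46.9 RPKM).

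The genes of HSP70, the chaperones that J-proteins act on, and of HSP110 included larger fold changes than any DNAJ member. Of 16 listed genes 11 reached 1 RPKM, of which 5 stood 1.5-fold or more above DMSO and 0 as far below, where 4.95% of all measured genes were on each side. The constitutive cytosolic HSP70 gene HSPA8 had a log2 fold change of 2.26 at 279.8 RPKM per the authors' deposited table, and the HSP110 gene HSPH1 had 1.62 at 27.9 RPKM there. HSPA1B and HSPA1A, near-identical copies whose separate values are uncertain, had 2.46 and 1.60 per the authors' deposited table. HSPA5, the reticulum HSP70 also called BiP, had 0.77 there, while HSPA4, a cytosolic relative of HSP110, had 0.24 and HSPA9, the mitochondrial HSP70, -0.31. Of the 11 genes 4 were below 0, with HSPA13 lowest at -0.53 per the authors' deposited table. The values of DNAJB1 and DNAJA1 lay between those of HSPA1A and HSPA5. No test of the difference between genes can be made from the table.

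Among 15 exchange factors and other regulators of HSP70, all of them measured, 12 were above 0, 3 stood 1.5-fold or more above and 1 as far below DMSO, with a median of 0.22. Of all measured genes 51.0% were above 0 and 4.95% lay 1.5-fold or more on each side. After removal of the trend with GC content, length and level, described further on for the members, the median of these 15 was 0.035. BAG3 and the HSP70-HSP90 adaptor gene STIP1 had log2 fold changes of 0.97 and 0.96 per the authors' deposited table, and BAG2 had 0.72. GRPEL2, a mitochondrial exchange factor, had -0.67 there, and its relative GRPEL1 0.58. HSF1, the heat shock transcription factor, had 0.29 at 49.5 RPKM per the authors' deposited table. The 4 J-proteins of reticulum stress had 1 value above 0, DNAJB11 at 0.21, and DNAJB9 was the lowest at -0.63 per the authors' deposited table. Of 10 further J-domain genes, 5 reached 1 RPKM. Of these GAK, a clathrin uncoating kinase, was highest at 0.32 and SEC63, of the protein translocation pore, lowest at -0.41 per the authors' deposited table.

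**Figure D4:**
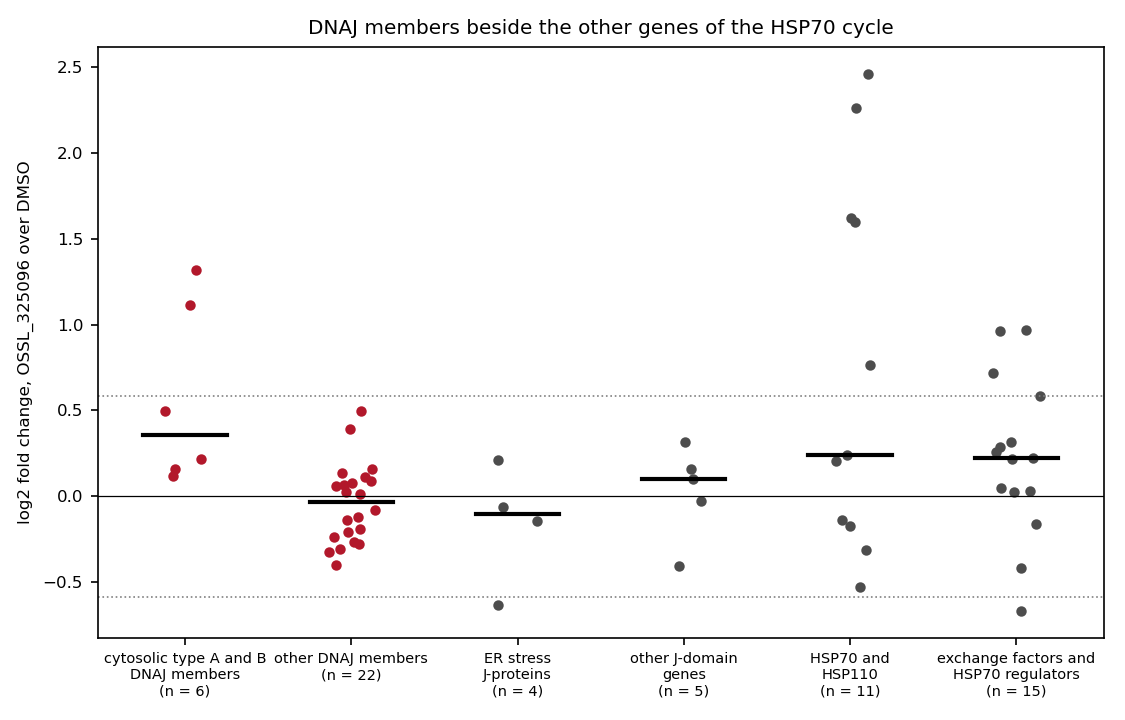
Log2 fold change (vertical axis) of measured genes in the cytosolic type A and B members (n = 6), the other DNAJ members (n = 22), the 4 reticulum stress J-proteins, 5 other J-domain genes, 11 HSP70 and HSP110 genes and 15 exchange factors and regulators. Horizontal bars are medians (0.36 and -0.032 for the DNAJ members) and dotted lines mark 1.5-fold; points are spread sideways for sight only.

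The fold changes of all measured genes moved with the GC content of their transcripts, so that of 5 equal bins by GC content the lowest had a median of -0.17 and the highest 0.23. Of the 28 measured members 11 were in the lowest bin and 1 in the highest. After a trend with GC content, transcript length and level was removed, DNAJB1 had 1.247 and DNAJA1 1.24. All 6 cytosolic type A and B members stayed above 0, with a median of 0.36. All 7 members of the endoplasmic reticulum group were then below 0, but their median moved from -0.21 to -0.040. DNAJC1 at -0.43 and DNAJC18 at -0.25 were farthest, and the others lay between -0.056 and -0.022. Of all measured genes in the trend, 5525 were then below 0 and 5579 above. DNAJC2 moved from 0.39 to 0.56, DNAJC11 from 0.50 to 0.36 and DNAJB2 from 0.50 to 0.31. The sign changed in 7 members, none of them more than 0.16 from 0 as deposited. The median over the 28 went from 0.064 to -0.0030.

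**Figure D5:**
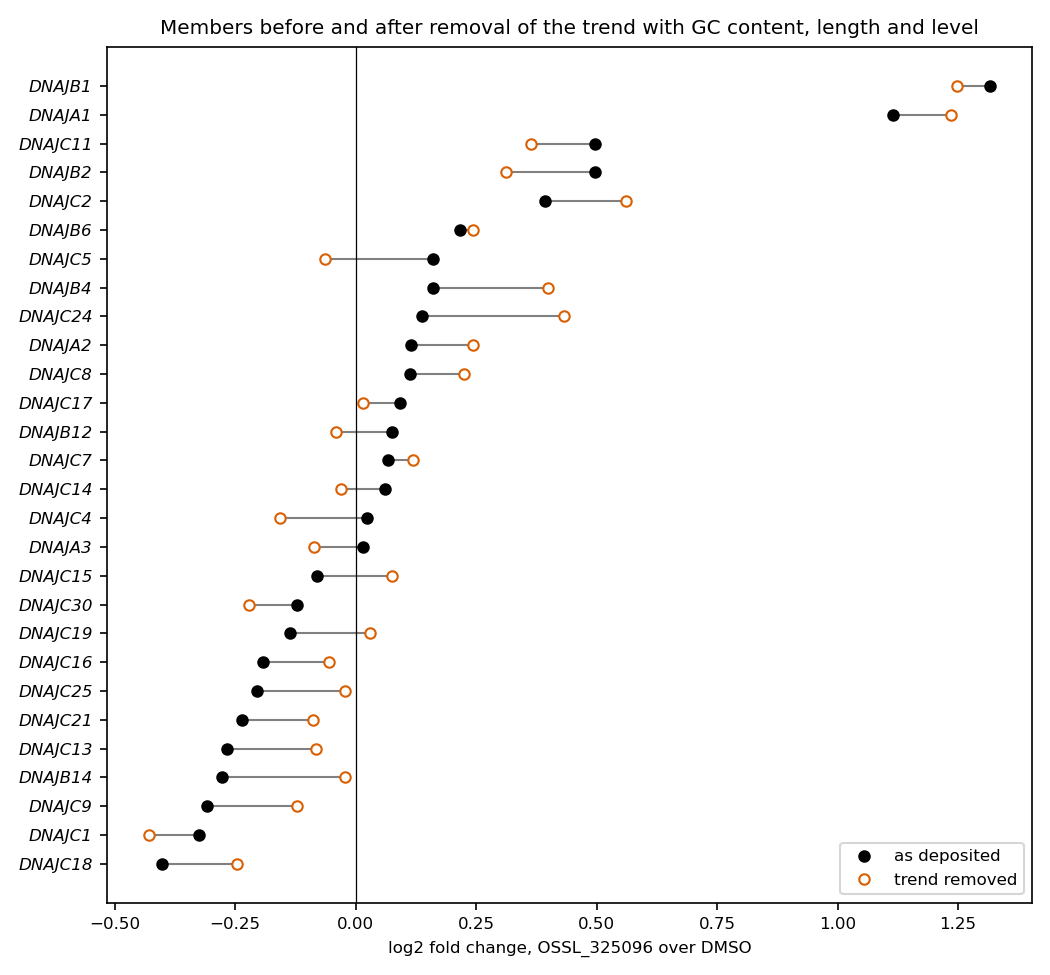
Log2 fold change (horizontal axis) of the 28 measured members as deposited (filled black) and after removal of the trend with level, GC content and transcript length over all measured genes (open orange). DNAJB1 and DNAJA1 stay highest both ways, while 7 members near 0 cross it.

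Reads of overlapping genes may be counted together where strand is not used, and the counting's strand setting was not given in the sources used here; whether this touched any value was not tested. In the table the regions of 12 members overlap another gene of at least 1 RPKM, 10 of them on the opposite strand. The region of DNAJB1 in the table overlaps TECR, a fatty acid elongation gene on the opposite strand, over 12686 bases. The canonical DNAJB1 transcript starts 11373 bases inside that region, so its own overlap with TECR is shorter. TECR had a log2 fold change of -0.02 at 45.7 RPKM per the authors' deposited table. The start of APTX, a DNA repair gene on the opposite strand, lies 43 bases from the start of DNAJA1's region in the table. APTX had 0.14 at 6.74 RPKM per the authors' deposited table. The RefSeq start used for the DNAJA1 promoter lies 62 bases inside that region, and the APTX start falls within the printed stretch. DNAJC2 overlaps PMPCB, a mitochondrial protease gene at -0.43 and 21.6 RPKM per the authors' deposited table, over 17038 bases. DNAJC25 shares its strand and 38843 bases with the read-through gene DNAJC25-GNG10, which makes the value of DNAJC25 uncertain where reads fit both. The same holds for DNAJC9, whose region overlaps MRPS16 on the same strand over 2111 bases, and for DNAJC4, which overlaps NUDT22 over 409 bases. MRPS16 had 0.05 at 28.7 RPKM and NUDT22 0.05 at 8.27 RPKM per the authors' deposited table. DNAJC11 overlaps THAP3 over 1419 bases, and THAP3 had 0.12 per the authors' deposited table.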

How the data were processed

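RNA was measured by sequencing in 4 libraries. Per the labels' protocols, Trizol and a column kit gave the RNA, from which oligo(dT) beads took the mRNA for copying with random primers. Per the series' design text, Biomedical Genomics Workbench 5 was used to map the reads to hg19, compute RPKM and compare the treatments. Not given in the sources used here are the counting rule, its strand setting, the annotation and the model. The RPKM values deposited by the authors are means of the higher treatment group. The authors deposited a log2 fold change, and their fold column, a signed score in the deposited file, repeats it. The p-value columns deposited by the authors are unadjusted, false discovery rate and Bonferroni values. The table has 0 columns of single libraries, so the depth is unknown, limma and fits by library or line could not be run, and the authors' p-values took their place.

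Members and lists were chosen with earlier results of these data known. Genes of at least 1 RPKM were kept, and Benjamini-Hochberg values recomputed over them. The lower group's level is the deposited mean divided by the fold. Because the fold comes from the authors' model, that level is an approximation. The trend was a polynomial regression of degree 3 on level, GC content and length, with GC content and length as medians over GENCODE 44 transcripts (98.1% of genes kept and all 28 members); it explained 15.8% of the variance. The code for the adjustment and the trend removal was checked on simulated data. The differences planted there had far smaller p-values than any measured gene here, so the check does not show what could be detected. All members may be named; promoters are shown for the largest fold changes at 5 RPKM or more and for members of the same type near 0. Alternatives were other minimums, other folds, centring, trend removal and a pseudocount of 1 RPKM. Amino acid sequences were not used here, and 1 gene of the lists is not reported here. Software was Python 3.11.15, scipy 1.17.1, pandas 2.3.3 and numpy 2.4.6.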

Additional observations from a re-analysis of the deposited data

How the results depend on the processing

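The counts of 2 members 1.5-fold or more above DMSO and 0 as far below were the same with no minimum on RPKM, with a minimum of 5 RPKM, after centring on the median of all genes, after removal of the trend and at 2-fold. With a limit of 0.32 on the log2 scale in place of 1.5-fold they were 5 higher and 2 lower, where 16.4% and 15.2% of all measured genes were. The median log2 fold change of the members, 0.0641, was 0.0197 with no minimum, 0.0715 with a minimum of 5 RPKM and 0.0555 after centring, and it turned to -0.00298 after removal of the trend. The count of members with an adjusted p under 0.05 was 0 under each minimum and with the false discovery rate as deposited, by the authors' p-values, and 0 members had an unadjusted p under 0.05. Of 84 alternative values of single members, 84 moved by less than the implied SE. That count carries little information: the trend moved members by -0.22 to 0.29 and centring by 0.0087, while the smallest implied SE was 0.84. No paired analysis was possible because the table holds no values of single libraries; for the same reason no library could be left out. The depth of the libraries is unknown.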

Other observations

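Repeated values show where the table's fold changes carry little information. The log2 fold change 2.333613 was given to 924 genes, none of them above 0.186 RPKM. The testis J-protein gene DNAJB8 was among them, at 0.0103 RPKM. Of the 34 members, 2 shared their fold change to 6 decimals with another gene, DNAJB5 and DNAJC28, both under 1 RPKM. DNAJC5B, a relative of DNAJC5, stood at -1.66 on the log2 scale per the authors' deposited table, at 0.109 RPKM and with an implied SE of 1.90.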
